A study of Mus musculus with 14 samples.

Results

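The tumor suppressor p53 and 9 of its direct target genes were followed in mammary epithelial cells of mice that overexpress the deubiquitinase Usp22. The 10 genes, Trp53, Mdm2, Cdkn1a, Ccng1, Phlda3, Trp53inp1, Zmat3, Bbc3, Bax and Eda2r, were found by their symbols, and all 10 were among the 16124 genes of the table. The study sequenced polyA RNA from 7 WT and 7 Usp22 OE/OE mice, which were nulliparous females of 3.5 months and were matched as littermate pairs numbered 1, 3, 4, 5, 6, 7 and 8. The OE/OE mice carried 2 copies of a Flag- and Myc-tagged mouse Usp22 cDNA at the ROSA26 locus, driven by the CAGGS promoter after a STOP cassette had been removed by ZP3-Cre, so that every tissue, including the stroma, overexpressed it. Epithelial organoids were freed from the number 2, 3 and 4 glands with collagenase and hyaluronidase and were separated from stroma by pulse centrifugation, with 1 library per mouse.

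Protein p53, encoded by Trp53, is a transcription factor that is held at a low level by the ubiquitin ligase Mdm2 and is stabilized by DNA damage and other stresses. It then binds a pair of similar decamers in DNA and activates genes for cell cycle arrest, apoptosis and DNA repair, as well as Mdm2, which closes a feedback loop. Control of p53 is chiefly at the level of the protein, so the level of Trp53 mRNA is not a measure of its activity, and several of its targets are also driven by other factors. Usp22 belongs to the SAGA coactivator complex, which acts on the transcription of many genes.

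The DNA next to the starts of these genes was read to show where the decamer to which p53 binds can be found. RefSeq promoter sequences of build GRCm38.p6, from 250 bases before to 50 bases after a start, covered 8 of the 10 genes in 11 windows, and Trp53inp1 and Zmat3 had none. The p53 decamer consensus reads purines, C, A or T, A or T, G and pyrimidines, and it is the same on both strands. Among all 32851 windows, 8.36% held at least 1 decamer and 0.0731% held 2 decamers separated by at most 13 bases. Of the 8 genes with windows, only Cdkn1a had such a pair, and its 250 bases before the start are shown with the matching decamers in capitals (chr17:29090729-29090978, plus strand). The pair lay 73 to 42 bases before the start, with 12 bases between the decamers.

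Cdkn1a: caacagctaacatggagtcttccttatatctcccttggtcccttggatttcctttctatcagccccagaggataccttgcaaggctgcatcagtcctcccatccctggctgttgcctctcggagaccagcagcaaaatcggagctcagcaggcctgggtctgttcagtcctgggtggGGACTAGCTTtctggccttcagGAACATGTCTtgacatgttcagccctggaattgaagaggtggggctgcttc

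The bases that follow the second Cdkn1a decamer nearly form another one. A search for 2 adjoining decamers with at most 1 base off the consensus, chosen after that window had been read, found 29 of the 32851 windows (0.0883%), with Cdkn1a and Ccng1 among them. Their 20 bases are shown with the base that is off the consensus in lower case. The Cdkn1a element was at chr17:29090928-29090947, 51 bases before this upstream start and 2841 bases before the other annotated start. The Ccng1 element was at chr11:40755462-40755481 on the minus strand, 195 bases before the start.

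Cdkn1a element: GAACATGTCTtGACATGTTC

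Ccng1 element: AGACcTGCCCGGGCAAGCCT

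Single decamers were found near Mdm2 (chr10:117710925-117710954, minus strand), Bax (chr7:45467080-45467109, minus strand), Trp53 (chr11:69580274-69580303, plus strand) and Ccng1. The first 3 are shown with 10 bases on each side and the decamer in capitals. No decamer was in the windows of Phlda3, Bbc3 or Eda2r. A match is a description of these letters and not a bound site, and elements farther from a start or inside introns were not searched.

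Mdm2: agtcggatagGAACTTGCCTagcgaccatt

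Bax: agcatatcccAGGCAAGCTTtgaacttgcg

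Trp53: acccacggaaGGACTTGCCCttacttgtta

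Fragment totals on genes ran from 20125106 to 41835978 per library, with the WT mice of pairs 1 and 8 at the low end. Usp22 had normalized counts of 3500 to 5380 in WT and 74948 to 144288 in OE/OE, as the label of each mouse states. All 10 pan-epithelial markers were detected in every library (2 of 10 passed the threshold of an unadjusted p of 0.05 or less, both higher), with summed counts of 347997 to 572484 in WT and 381531 to 670762 in OE/OE. Markers of other cell types were also present, none of them at 0 in any library. Adipocyte markers summed to 13692 to 34525 in WT and 10191 to 31297 in OE/OE (5 of 10 passed the threshold, all lower), and fibroblast markers to 98899 to 211919 and 64510 to 157086 (3 of 10 passed, all lower). Over all genes, 1.95% passed as higher and 1.85% as lower. In such bulk samples fewer cells of a type and less RNA per cell cannot be told apart. In pair 4, the mean log2 level of 24 cell cycle genes that the DREAM complex represses was 5.11 in the WT and 9.91 in the OE/OE mouse, a log2 ratio of 4.80 against -2.06 to 0.37 in the other pairs. That pair is therefore given apart where it decides a value.

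In WT cells the 10 genes spanned a wide range of levels (plot of levels by pair). Cdkn1a, which encodes the cyclin-dependent kinase inhibitor p21, had the highest level per kilobase of exon, 4187 ± 917 normalized counts per kb (SD, n = 7), above 97.9% of all genes. Trp53inp1 followed with 3257 ± 1857 per kb, and Cdkn1a exceeded it in 4 of 7 WT mice, so their order was not fixed. Ccng1 (650 ± 186 per kb), Phlda3 (622 ± 239), Trp53 (604 ± 120) and Mdm2 (579 ± 91.0) formed a middle group in which each gene exceeded the next in only 3 or 4 of the 7 mice. Bax was below Mdm2 in 7 of 7 mice, at 364 ± 88.8 per kb, and above Zmat3 (106 ± 45.3 per kb) in 7 of 7. Bbc3 (93.1 ± 20.9 per kb) and Eda2r (71.5 ± 32.7 per kb) were lowest, and neither was separated from its neighbour by the spread between mice.

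**Figure D1:**
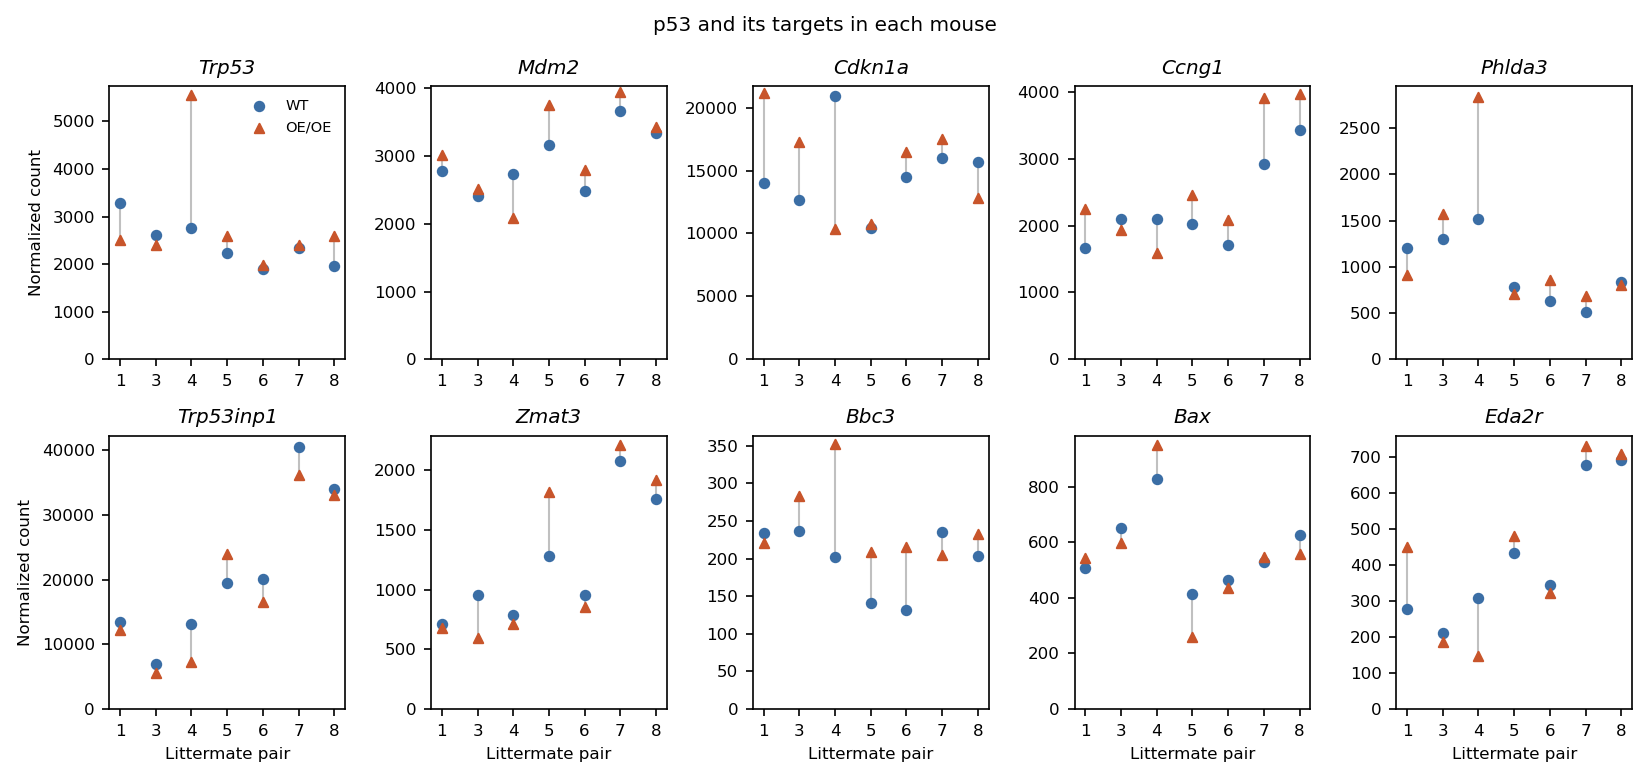
Normalized count (y axis, from 0) of each of the 10 genes in the WT (circles) and OE/OE (triangles) mouse of each littermate pair (x axis), with a line joining littermates. The groups overlap for all 10 genes, the OE/OE mouse of pair 4 has the highest Trp53 (5561) and Phlda3 (2841) counts, and the Trp53inp1 counts differ more between litters than between littermates.

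The first comparison asked whether Usp22 overexpression changed the mRNA of p53 or of its targets. None of the 10 genes passed the study's threshold of an unadjusted p of 0.05 or less in limma with the pair as a block, where 3.81% of all genes did (614 of 16124, of which 2 had an adjusted p under 0.05). None was higher (background 1.95%) or lower (background 1.85%) past the threshold, and none moved in the same direction in all 7 pairs (background 1.51%). All 10 had an adjusted p of 1.00, and WT and OE/OE levels overlapped for each. The log2 fold change was above 0 for 6 of 10, with a median of 0.03 against -0.0015 over all genes. The 95% intervals of the 10 fold changes lay between 0.713-fold and 1.56-fold, and any change within its gene's interval is compatible with these values. The calls depended on what the fit held constant: when the mean adipocyte marker level was a covariate, Cdkn1a (log2 fold change 0.46), Eda2r (0.43) and Ccng1 (0.39) passed as higher, and when it was the immediate-early gene level, Trp53 (0.27), Phlda3 (0.28) and Bbc3 (0.35) passed as higher and Trp53inp1 (-0.27) as lower, whereas 2886 and 2067 genes in all passed in those fits.

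Trp53 (ENSMUSG00000059552.13, GRCm38 chromosome 11, 69580359 to 69591873) had a lowest, median and highest normalized count of 1897, 2329 and 3285 in WT mice and of 1989, 2507 and 5561 in OE/OE mice. The ranges overlapped, and only the OE/OE mouse of pair 4 lay far above the rest. The log2 fold change was 0.17 (SE 0.14, 95% interval -0.15 to 0.49, limma unadjusted p = 0.261), with OE/OE higher in 5 of 7 pairs. The annotation holds a processed pseudogene, Trp53-ps, with which Trp53 may share fragments. Pair 4 decided the value: the mean of the pairs' log2 ratios was 0.03 without it. The sign also turned with the adipocyte score as a covariate (log2 fold change -0.21, limma unadjusted p = 0.0682). Mdm2 (chromosome 10, 117688875 to 117710758), the ligase that degrades p53 and is itself a target, had counts of 2415, 2781 and 3666 in WT and of 2084, 3014 and 3943 in OE/OE. It was higher in the OE/OE mouse in 6 of 7 pairs, by log2 ratios of 0.04 to 0.24, and lower in pair 4, by -0.40. Its log2 fold change was 0.05 (SE 0.08, 95% interval -0.14 to 0.23, limma unadjusted p = 0.577), and it was 0.12 without pair 4 and -0.0076 after quantile normalization.

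Cdkn1a, Ccng1 and Phlda3, genes of cell cycle arrest and growth control, had log2 fold changes above 0, but none passed the threshold with all 7 pairs. Cdkn1a (chromosome 17, 29090976 to 29100727) had counts of 10422, 14484 and 20895 in WT and of 10373, 16491 and 21176 in OE/OE. Its log2 fold change of 0.02 (SE 0.17, 95% interval -0.37 to 0.40, limma unadjusted p = 0.931) stood for pairs that differed widely, from 0.60 in pair 1 to -1.01 in pair 4. The sign of the Cdkn1a value was not stable, being -0.05 under quantile normalization and 0.19 without pair 4. The gene AC167363.2 shares 273 bases of exon with Cdkn1a on the opposite strand and had only 6.35 to 24.7 normalized counts, and without the strand the fragments of the shared exon cannot be told apart. Ccng1 (chromosome 11, 40748552 to 40755311) encodes cyclin G1, which brings a phosphatase to Mdm2. It had counts of 1673, 2096 and 3440 in WT and of 1595, 2247 and 3973 in OE/OE, and was higher in 5 of 7 pairs. Its log2 fold change was 0.16 (SE 0.11, limma unadjusted p = 0.172), and without pair 4 it was 0.25 and passed the threshold (limma unadjusted p = 0.0131). In the fit without pair 4, 1366 genes passed, against 614 with all pairs, and Ccng1 had a Benjamini-Hochberg adjusted p of 0.528 in limma. Phlda3 (chromosome 1, 135766119 to 135769136), whose product competes with Akt for membrane lipids, had counts of 515, 838 and 1514 in WT and of 679, 860 and 2841 in OE/OE. Its log2 fold change was 0.20 (SE 0.15, limma unadjusted p = 0.202), with 4 of 7 pairs higher, and was 0.08 as a mean of ratios without pair 4.

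Among the genes of apoptosis, Bbc3 came closest to the threshold. Bbc3 (chromosome 7, 16308393 to 16318205) encodes Puma, a BH3-only protein that releases Bax. It had counts of 132, 203 and 236 in WT and of 204, 220 and 352 in OE/OE, so that the lowest OE/OE value was near the WT median. Its fold change was 1.25 (95% interval 0.993 to 1.56, limma unadjusted p = 0.0557), with 5 of 7 pairs higher, and flipping the signs of the pair ratios in every combination gave an exact p of 0.109, where the smallest possible is 0.0156. The threshold was passed with DESeq2 (unadjusted p = 0.0492), after median centring (0.0429) and after quantile normalization (0.0330), and also without pair 1 (0.0347) or pair 7 (0.0264). It was not passed without pair 4 (log2 fold change 0.24, limma unadjusted p = 0.117), pair 5 (0.123) or pair 6 (0.146), and the log2 fold change of 0.32 became 0.07, 0.14 and 0.19 with the adipocyte, fibroblast and pan-epithelial scores as covariates (limma unadjusted p = 0.700, 0.431 and 0.414). Of all genes, 1196 passed without pair 1 and 498 without pair 7, against 614 with all pairs. Bax (chromosome 7, 45461697 to 45466898), the pore former of the mitochondrial membrane, had counts of 415, 530 and 829 in WT and of 259, 549 and 949 in OE/OE. Gm45808, a protein-coding gene on the same strand that shares 192 bases of exon with Bax, may share its fragments and was not among the genes tested. The Bax log2 fold change was -0.10 (SE 0.11, limma unadjusted p = 0.375), with 3 of 7 pairs higher. The Bax value rested on pair 5 (log2 ratio -0.68) and was -0.0059 without it. Both 95% intervals included 0, that of Bax being -0.35 to 0.14.

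Trp53inp1 (chromosome 4, 11156431 to 11174379), a stress-induced nuclear protein that promotes the phosphorylation of p53, had counts of 6903, 19557 and 40476 in WT and of 5609, 16570 and 36215 in OE/OE. It was the gene with the most pairs lower, 6 of 7, with a log2 fold change of -0.21 (SE 0.12, 95% interval -0.49 to 0.06, limma unadjusted p = 0.118). The threshold was passed after quantile normalization (unadjusted p = 0.0482) and without pair 5 (0.0319), the only pair in which the OE/OE mouse was higher. The log2 fold change was -0.10 without pair 4 (limma unadjusted p = 0.299) and -0.0081 with the adipocyte score as a covariate (limma unadjusted p = 0.957). Zmat3 (chromosome 3, 32334792 to 32366014), an RNA-binding zinc finger protein, had counts of 709, 956 and 2072 in WT and of 594, 857 and 2205 in OE/OE. Eda2r (chromosome X, 97333840 to 97377216), a receptor of the TNF receptor family, had counts of 211, 346 and 693 in WT and of 147, 451 and 730 in OE/OE. Neither differed between genotypes beyond its spread, with log2 fold changes of -0.05 (SE 0.12, limma unadjusted p = 0.699) and -0.05 (SE 0.18, limma unadjusted p = 0.776), although single pairs of Eda2r ran from -1.07 in pair 4 to 0.70 in pair 1. The sign of each rested on 1 pair, the log2 fold change being 0.12 for Eda2r without pair 4 and 0.06 for Zmat3 without pair 3.

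**Figure D2:**
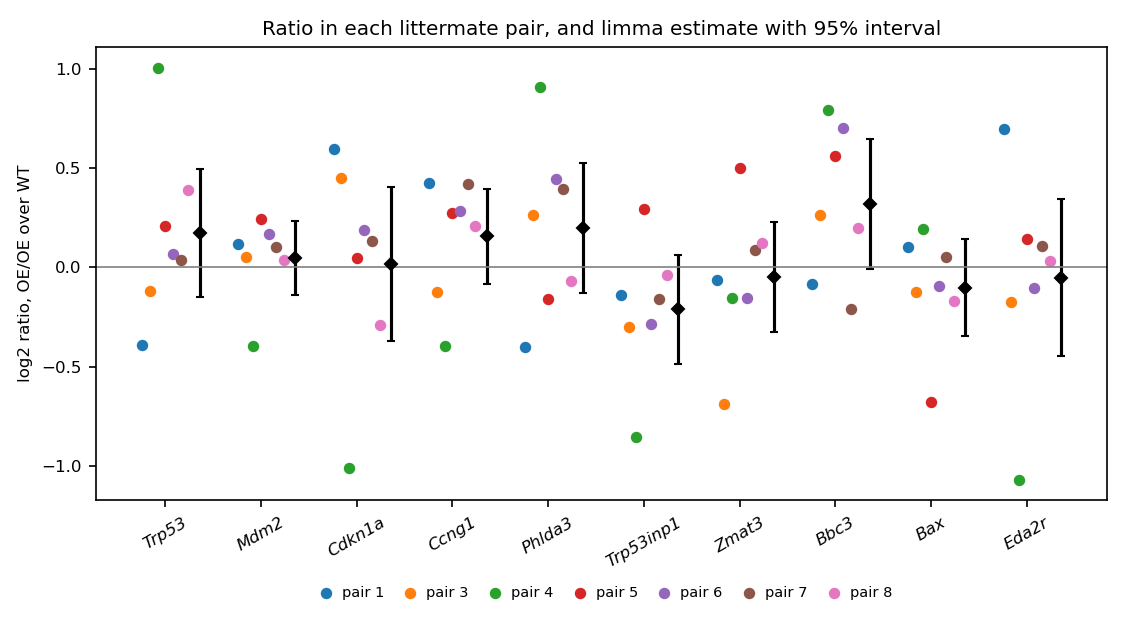
Log2 ratio of the OE/OE over the WT mouse (y axis) for each gene (x axis), with 1 colored point per littermate pair and a black diamond for the limma log2 fold change with its 95% interval. All 10 intervals include 0, and pair 4 gives the highest ratio of Trp53, Phlda3, Bbc3 and Bax and the lowest ratio of Mdm2, Cdkn1a, Ccng1, Trp53inp1 and Eda2r.

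Pair 4 separated the 10 genes into those that were higher and those that were lower in its OE/OE mouse. Trp53 (log2 ratio 1.01), Phlda3 (0.91), Bbc3 (0.80) and Bax (0.19) were higher there. Eda2r (-1.07), Cdkn1a (-1.01), Trp53inp1 (-0.85), Mdm2 (-0.40), Ccng1 (-0.39) and Zmat3 (-0.15) were lower. The median absolute log2 ratio of the 10 genes in this pair was 0.82, against 0.43 over all genes, whereas in the other pairs it was 0.12 to 0.27 against 0.14 to 0.29. In the same pair the log2 ratio of the mean level was 4.80 for the DREAM cell cycle genes, -1.98 for adipocyte markers, -1.74 for endothelial markers and -0.96 for immediate-early genes, and the part of these in the ratios of the 10 genes was not tested.

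The change in Trp53 and the change in Cdkn1a ran opposite to each other across the 7 pairs (scatter of the pair ratios). In pair 1 the OE/OE mouse had a Trp53 log2 ratio of -0.39 and a Cdkn1a log2 ratio of 0.60, and in pair 3 the values were -0.12 and 0.45. Pairs 6, 7 and 5 had small Trp53 log2 ratios of 0.07, 0.04 and 0.21 beside Cdkn1a log2 ratios of 0.19, 0.13 and 0.05. Pair 8 had 0.39 and -0.29, and pair 4 had 1.01 and -1.01. Pearson's r was -0.992 and Spearman's rho was -0.964 over 7 pairs (exact permutation p = 0.000397 and 0.00278). Among the 45 relations between the ratios of the 10 genes, 8 had an unadjusted p under 0.05, and this was the only one with a Benjamini-Hochberg adjusted p under 0.05 (exact permutation test, adjusted p = 0.0179). The adjustment covered these 45 alone. It left out the 45 relations between pair means, the 10 with Usp22, and the 100 with list ratios and 100 with list means. How often 2 genes of the whole table reach such an r was not tested. Without pairs 1 and 4, the farthest from the median Trp53 ratio, r of Trp53 and Cdkn1a was -0.979. It stayed between -0.995 and -0.974 when any single pair was left out and between -0.992 and -0.974 under other scalings and pseudocounts.

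**Figure D3:**
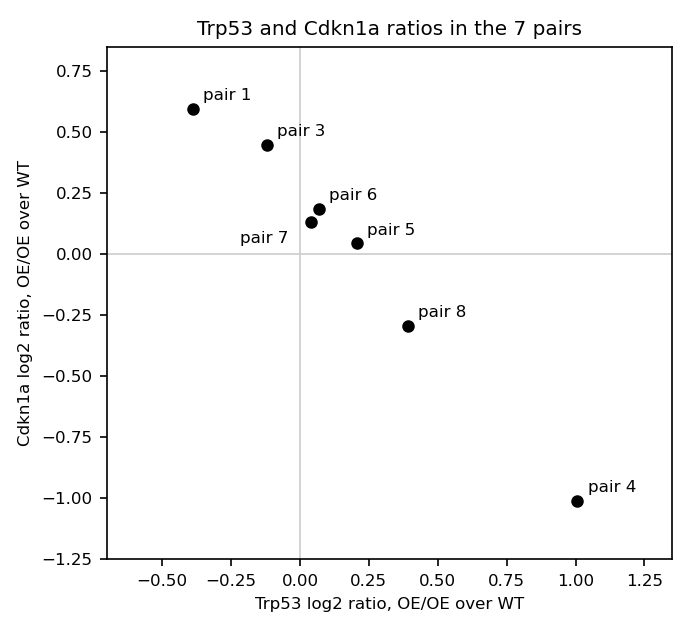
Log2 ratio of the OE/OE over the WT mouse for Trp53 (x axis) and Cdkn1a (y axis), with 1 point per littermate pair. The 7 pairs fall along a descending line from pair 1 (-0.39, 0.60) to pair 4 (1.01, -1.01).

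The levels themselves were compared as well, and the difference between these correlations and that of the ratios was not tested. Over the 7 WT mice, the log2 levels of Trp53 and Cdkn1a had r = 0.13 and rho = 0.07 (exact permutation p = 0.792 and 0.906). Over the 7 OE/OE mice r was -0.62 and rho was -0.68 (exact permutation p = 0.103 and 0.110), and over the 7 means of littermates r was 0.09 (exact permutation p = 0.799). Other lists moved with these ratios. The Cdkn1a ratio had r = -0.93 with the ratio of the DREAM genes, 0.92 with that of endothelial markers, 0.89 with that of adipocyte markers and 0.89 with that of immediate-early genes, and the Trp53 ratio had r = 0.89, -0.95, -0.92 and -0.87 with these. None of the 100 relations between the 10 genes and these lists passed after adjustment (exact permutation test, smallest adjusted p = 0.115). Without the pairs farthest from the median of each list, r of the Cdkn1a ratio was -0.65, 0.44, 0.44 and 0.39 for these lists, and of the Trp53 ratio 0.55, -0.46, -0.46 and -0.26. The part of these lists in the relation of Trp53 and Cdkn1a was not tested.

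The levels of most of the 10 genes differed more between litters than between genotypes. With no effect of either, the degrees of freedom alone put 46.2% of the spread between pairs and 7.69% between genotypes. For Trp53inp1, 95.4% of the spread over the 14 libraries lay between pairs and 1.39% between genotypes, and the pair mean was 6.15-fold higher in pair 7 than in pair 3. For Zmat3 93.4%, for Bax 89.2%, for Eda2r 88.3%, for Phlda3 86.9%, for Mdm2 85.7% and for Ccng1 85.3% of the spread lay between pairs. Trp53 was at 64.2%, and Bbc3 (50.2%) and Cdkn1a (42.5%) were near the share that no effect gives. Bbc3 had the largest share for the genotype, 22.0%, and the median of the 10 genes was 86.3% between pairs and 1.40% for the genotype, against 73.9% and 1.43% over all genes. Litter, day of preparation and cell make-up of a pair cannot be told apart here.

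Some targets were high in the same litters (map of litter means). Trp53inp1, Eda2r, Mdm2, Zmat3 and Ccng1, grouped after their values had been seen, were all above their own mean in pairs 7 and 8 and all below it in pairs 1, 3 and 4. Trp53inp1 and Eda2r followed each other most closely, with r = 0.967 and rho = 0.964 over 7 pair means (exact permutation p = 0.00218 and 0.00278), and r = 0.951 without pairs 3 and 7. Mdm2 and Eda2r had r = 0.942 and Bbc3 and Bax had r = 0.882. Phlda3 ran the other way, with r = -0.83 to Eda2r, -0.83 to Trp53inp1 and -0.82 to Mdm2. Of the 45 relations between pair means, 15 had an unadjusted p under 0.05 and none passed after adjustment (exact permutation test, smallest adjusted p = 0.0536). The mean level of 10 luminal markers had r of 0.89 with Mdm2, 0.88 with Ccng1, 0.87 with Trp53inp1, 0.85 with Zmat3 and 0.92 with Eda2r (exact permutation test over 7 pair means, adjusted p of at least 0.245 over 100 relations), and its part in their levels was not tested.

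**Figure D4:**
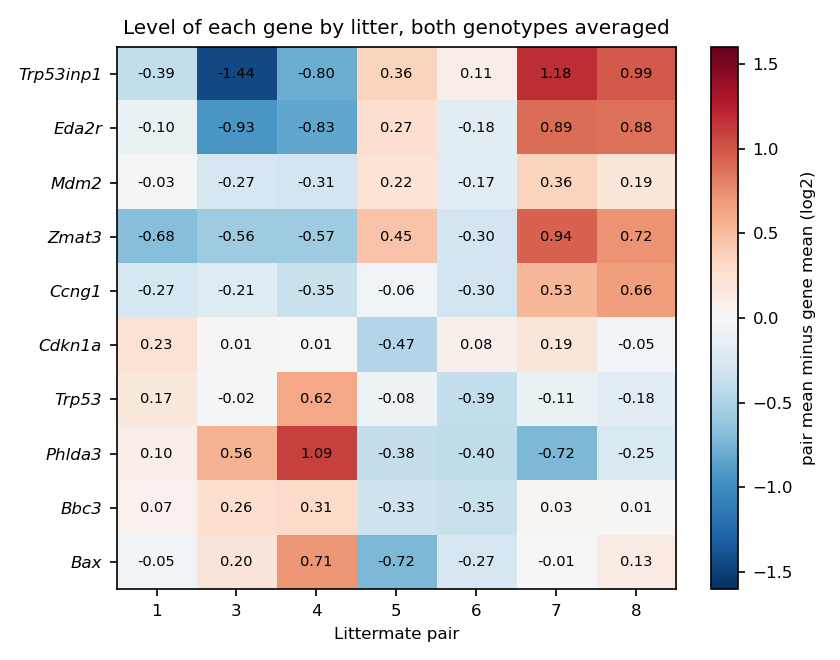
Mean log2 level of each gene (rows) in each littermate pair (columns), both genotypes averaged, minus the mean of that gene over pairs, in log2 units. Trp53inp1, Eda2r, Mdm2, Zmat3 and Ccng1 are above their own mean in pairs 7 and 8 and below it in pairs 1, 3 and 4, with Trp53inp1 at -1.44 in pair 3, whereas Phlda3 is highest in pair 4 (1.09).

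Beyond the 10 genes, 71 other p53 targets were listed by role, and 68 of them were in the table (plot of the wider lists). Of the 68, 40 had a log2 fold change above 0 and 28 below, with a median of 0.03. The unadjusted threshold was passed by 5 higher and 1 lower, 8.82% of the 68 against 3.81% of all genes, and none had an adjusted p under 0.05. Pmaip1, which encodes the BH3-only protein Noxa, was higher in 6 of 7 pairs by a log2 fold change of 0.46 (SE 0.18, limma unadjusted p = 0.0301), from 170 to 369 normalized counts in WT and from 235 to 474 in OE/OE. Cgref1, a regulator of growth, was higher in 5 of 7 pairs, with a log2 fold change of 0.38 (limma unadjusted p = 0.0222). Sesn2, a sestrin that restrains mTORC1, was higher in 6 of 7 pairs by 0.25 on the log2 scale (limma unadjusted p = 0.0202). Ddit4, another inhibitor of mTORC1, was higher in 5 of 7 pairs, with a log2 fold change of 0.23 (limma unadjusted p = 0.0330). Slc19a2, a thiamine transporter, was higher in 7 of 7 pairs, also with a log2 fold change of 0.23 (limma unadjusted p = 0.0303). Rad51c, a protein of homologous recombination, was lower in 6 of 7 pairs by a log2 fold change of -0.39 (limma unadjusted p = 0.0443). It had low normalized counts, 56.9 to 92.8 in WT and 28.1 to 104 in OE/OE. The Rad51c call was lost with edgeR (unadjusted p = 0.0562) and with DESeq2 (unadjusted p = 0.0702). The count of 6 depended on the pair left out, being 0 without pair 3, 0 without pair 6, 3 without pair 7 and 10 without pair 4. Of all 16124 genes, 477, 381, 498 and 1366 passed in those fits, against 614 with all pairs. Without pairs 1, 5 and 8 the count was 6, 4 and 6, and 1196, 484 and 482 of all genes passed. With the fibroblast and pan-epithelial scores as covariates the count was 1 and 0 (331 and 252 of all genes). There the log2 fold changes of Pmaip1 were 0.18 and 0.38 and those of Ddit4 0.08 and 0.12. With the adipocyte and immediate-early scores the count was 16 and 14 (2886 and 2067 of all genes).

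By role, 1 of 11 measured arrest genes, 1 of 15 apoptosis genes, 2 of 14 metabolic genes and 1 of 19 other targets passed as higher. The share of all genes that passed as higher was 1.95%. As lower, 1 of 9 DNA repair genes passed, against 1.85% of all genes, and counts this small set no role apart. Of 20 regulators of p53 itself, 17 had a log2 fold change above 0, against 49.6% of all genes, but all were measured in the same 7 pairs. Their mean log2 level was higher in the OE/OE mouse in 5 of 7 pairs, with log2 ratios from -0.07 to 0.33. Of the 20, 1 passed, a share near the 3.81% of all genes. That gene was Ppm1d, which encodes the Wip1 phosphatase, a target of p53 that dephosphorylates p53 and its kinases. Ppm1d had 593 to 763 normalized counts in WT and 622 to 933 in OE/OE, and was higher in 7 of 7 pairs, by log2 ratios of 0.04 to 0.54. Its log2 fold change was 0.28 (SE 0.08, limma unadjusted p = 0.00705, adjusted p = 1.00), and the exact sign-flip test gave p = 0.0156, the smallest that 7 pairs allow. With the adipocyte, fibroblast and pan-epithelial scores as covariates the log2 fold change was 0.24, 0.25 and 0.26 and missed the threshold (limma unadjusted p = 0.0585, 0.0505 and 0.0863). The family members Trp63 and Trp73 had log2 fold changes of 0.34 and 0.57, neither past the threshold (limma unadjusted p = 0.169 and 0.0657). Trp73 had only 6.82 to 21.8 normalized counts in WT and 15.1 to 35.1 in OE/OE. Among the 24 DREAM cell cycle genes, which p53 represses through p21, 17 had a log2 fold change above 0. Their mean level, however, was higher in the OE/OE mouse in only 3 of 7 pairs and lower in 4. The log2 ratio of that mean was 4.80 in pair 4 and -2.06 to 0.37 in the other pairs. Of the 24 genes, 1 passed, where 3.81% of all genes did. It was Aurka, the kinase of the mitotic spindle, with a log2 fold change of -0.39 (SE 0.12, limma unadjusted p = 0.00869) and 6 of 7 pairs lower. The Aurka value was -0.18 with the fibroblast and -0.24 with the pan-epithelial score as a covariate (limma unadjusted p = 0.140 and 0.208), and its call was also lost with the adipocyte score (0.0639) and without the pair as a block (0.106).

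**Figure D5:**
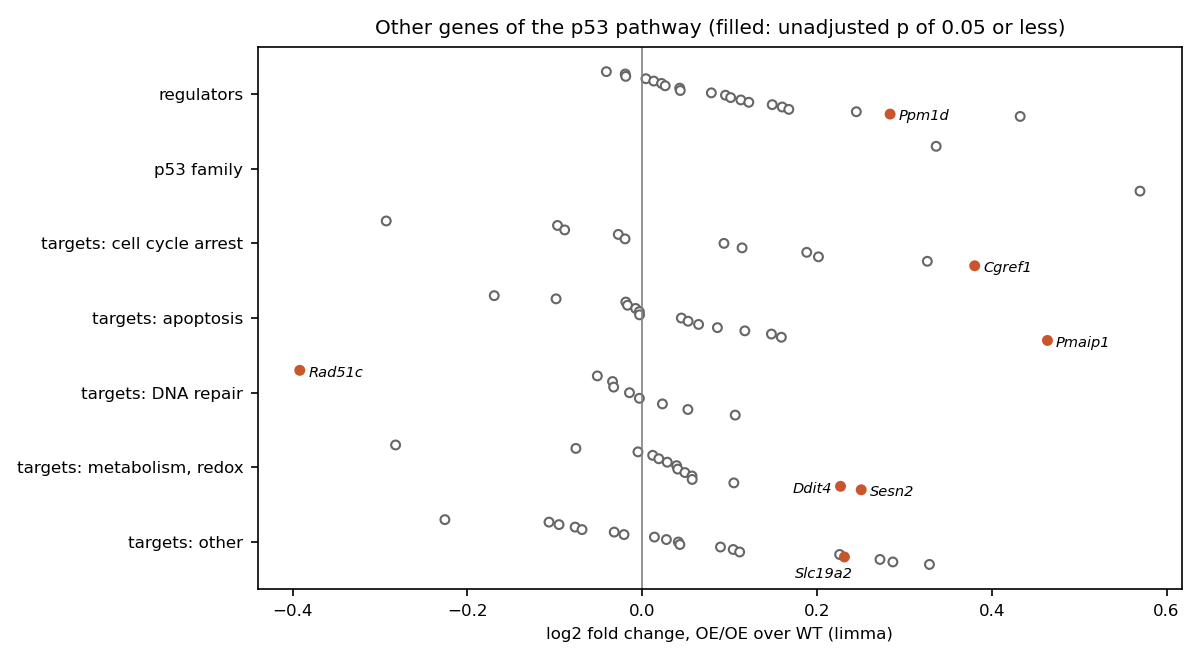
Log2 fold change, OE/OE over WT, from limma (x axis) for each gene of the p53 regulators, the p53 family and the other p53 targets by role (rows). Each circle is 1 gene, and the 7 filled and named genes passed an unadjusted p of 0.05 or less, 6 of them higher (Ppm1d, Cgref1, Pmaip1, Sesn2, Ddit4, Slc19a2) and 1 lower (Rad51c).

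The ratios of the 10 genes were also set against how far Usp22 was raised in each pair. None of the 10 relations had an unadjusted p under 0.05 (exact permutation test over 7 pairs, smallest adjusted p = 0.516). Cdkn1a had r = 0.70 and rho = 0.75 (exact permutation p = 0.0677 and 0.0663), and Trp53 had r = -0.65 and rho = -0.61 (exact permutation p = 0.103 and 0.167). Without pairs 3 and 7, farthest from the median Usp22 ratio, these r were 0.91 and -0.90 over 5 pairs, and no test was made of them. The Trp53 and Cdkn1a ratios had r = -0.992 with each other, so their relations to Usp22 are not independent. Other genes shifted too without those pairs, Ccng1 from r = 0.02 to 0.73, Eda2r from 0.35 to 0.73 and Zmat3 from -0.55 to -0.11.

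Over the 14 libraries and 13230 genes with a mean of at least 50 normalized counts, the genes whose log2 level was most like that of Trp53 were Fam192a (r = 0.974), Fam98b (0.955) and Cdc42se1 (0.943). For Cdkn1a they were Adm (r = 0.941), which encodes adrenomedullin, Cd82 (0.910), a tetraspanin that is itself on the list of p53 targets, and Tm4sf1 (0.893). For Mdm2 they were Pias1 (r = 0.957), Mtmr12 (0.952) and Clic4 (0.952). No other of the 10 genes was among the closest 3 of these, and Eda2r was at r = 0.919 with Mdm2. The libraries share litters, so these values describe the 14 libraries and carry no test.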

How the data were processed

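RNA of 14 mouse libraries was compared as 7 littermate pairs, matched by the pair number in the sample titles and by the methods. The authors aligned paired reads to mm10 with TopHat2 2.0.10, counted fragments per GENCODE gene with HTSeq 0.6.0, kept genes with at least 10 fragments in 7 samples and divided by DESeq 1.18.0 size factors. Whether counting used the strand is not given in the sources used here. The deposited values are therefore a linear signal that is never negative; 100% of them were whole multiples (tolerance 0.01) of a per-library step, which gave whole fragments and the depth. Positions, exon lengths and overlaps are from GENCODE M21.

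Log2(normalized count + 1) was fitted with limma 3.58.1 (R 4.3.3), with the pair as a block and a mean-variance trend, over all 16124 genes. Calls used the unadjusted p of 0.05 or less of the study, and Benjamini-Hochberg adjusted values stand beside them. Single values were tested by exact sign flips (128 patterns) and relations by exact permutation, two-sided. Whether same-numbered libraries vary together was checked: their deviations correlated in every pair (median 0.581, lowest 0.203). The limma fit was tested on simulated counts, which held no differences between pairs. Alternatives were edgeR 4.0.16, DESeq2 1.42.0 on whole fragments, other scalings, filters, covariates and each pair left out. Each library is another mouse, and no libraries were near-identical.

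The genes, lists and tests were chosen with earlier results of these data known. Genes named beside the 10 were those of the lists at an unadjusted p of 0.05 or less, at most 3 per list and direction, overlapping genes, and the 3 most like Trp53, Cdkn1a and Mdm2. A wider window around each start was planned for the p53 decamers, but only the RefSeq promoter windows of 300 bases were used here.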

Additional observations from a re-analysis of the deposited data

Results flagged for a closer look

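In 2 of 20 groups of 7 mice (each of the 10 genes in each genotype), 1 mouse stood apart from the others by Dixon's gap, where chance gives about 1. The gap was taken on untransformed normalized counts. On the log2 scale of the fits a gap at the high end is smaller, and whether either mouse would stand apart there was not tested. Both were the OE/OE mouse of pair 4. Its Trp53 count was 5561, with the nearest mouse at 2587 (a gap of 0.833 of the group's range). Its Phlda3 count was 2841, with the nearest at 1568 (a gap of 0.589 of the range), and both gaps were above the 95% critical value for 7 samples. The same library had a mean log2 level of 9.91 for the DREAM cell cycle genes, against 5.57 to 8.51 in the other OE/OE libraries, and what part this had in either value was not tested.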

How the results depend on the processing

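Of 396 alternative values for the 10 genes and 8 named ones, 305 kept their direction and side of the threshold, 57 lost and 15 gained a call, and 19 turned. With 614 genes past the threshold, the count was 182 without the replicate block of littermate pairs, 2886, 331, 252 and 2067 with the adipocyte, fibroblast, pan-epithelial and immediate-early scores as covariates, 1033 with the DREAM score (added after seeing the data), and 381 (without pair 6) to 1366 (without pair 4), with 1196 without pair 1. Of the 10 genes, 0 passed; 1 did with DESeq2, after median centring and with the DREAM score (Bbc3 each time), 2 after quantile normalization, 3 with the adipocyte score, 4 with the immediate-early score, and 0 to 1 with a pair left out. Of the 68 other targets, 6 passed, 1 without the block, 3 in the per-gene paired test, 16, 1, 0 and 14 with the 4 scores in that order, and 0 to 10 with a pair left out. Turned log2 fold changes were, with the adipocyte score, Trp53 -0.21, Phlda3 -0.14 and Eda2r 0.43; with the fibroblast score, Phlda3 -0.0017, Zmat3 0.00036 and Eda2r 0.18; with the pan-epithelial score, Cdkn1a -0.14; with the immediate-early score, Cdkn1a -0.10 and Mdm2 -0.00028; after quantile normalization, Mdm2 -0.0076 and Cdkn1a -0.053; in the per-gene test, Zmat3 0.042 and Eda2r 0.038. With a pair left out, Cdkn1a ran from -0.081 to 0.19, Zmat3 from -0.14 to 0.057 and Eda2r from -0.18 to 0.12. Of the 8 named genes beside the 10, 5 lost their call with the adipocyte, 7 with the fibroblast and 8 with the pan-epithelial score. A pair of decamers was near 1 of the 8 genes with promoter windows, and near 0 of them when no base between the decamers was allowed. The cause of these shifts was not tested. With 7 pairs, changes as small as those of the 10 genes cannot be told from the spread of ratios between pairs (SD 0.21 to 0.53 on the log2 scale).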
